A study of Homo sapiens with 12 samples.

Results

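The replication-dependent histone genes are the clustered genes, named HIST1H to HIST4H in the deposited table, that encode the linker histone H1 and the core histones H2A, H2B, H3 and H4. All rows of the count table with such a name and a summed count of at least 10 over the 12 libraries were taken. Of 90 rows with such a name among 57169 rows in all, 51 met that minimum, of which 45 are protein-coding genes and 6 are not. They comprise 5 H1, 11 H2A, 15 H2B, 9 H3 and 11 H4 genes. Of the other rows, 20 had no count in any library and 19 had 1 to 9 counts.

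The libraries came from xenograft tumours of SK-ES1, an established human Ewing sarcoma cell line, grown in a host animal that the labels do not name. A group of 6 libraries carried a knock-down of RING1B, and the other 6 were labelled wild-type and are called controls here. The labels do not name a construct for either group, and give neither clones nor the age of the hosts. RNA was read after selection of polyadenylated molecules, so the counts describe the histone RNA that came through that selection. How much of it was without a poly(A) tail was not measured.

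RING1B, encoded by RNF2, is the E3 ligase of Polycomb repressive complex 1 that attaches ubiquitin to histone H2A. Core histones form the nucleosome around which DNA is wound, and H1 binds the linker DNA between nucleosomes. Replication-dependent histone genes lack introns in their classic form and are transcribed mainly in S phase. Their mRNA ends in a conserved stem-loop, bound by the stem-loop binding protein SLBP, in place of a poly(A) tail. Many of these genes can also yield longer, polyadenylated transcripts when a downstream poly(A) signal is used, which is known from differentiated and tumour cells.

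The stem-loop is shown first because it marks where the classic, tail-less histone mRNA ends. It was searched as 16 bases, a stem that starts with GG, 2 bases and CT, a loop of 4 bases, and 6 bases that pair with the stem, G-U pairs allowed. A match occurred in an annotated transcript of 26 of the 51 genes, against 6.51% of 57133 genes of GENCODE release 29 and 11.1% of its 19669 genes with a protein-coding transcript. The forms are printed 5′ to 3′ as in the annotated transcripts, with the stem in capitals and the loop in lower case, each with 1 gene that carries it.
HIST1H2AC: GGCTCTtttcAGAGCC
HIST1H2BD: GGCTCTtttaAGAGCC
HIST1H2AG: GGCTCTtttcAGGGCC
HIST1H4H: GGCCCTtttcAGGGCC
HIST1H4I: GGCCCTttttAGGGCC
HIST1H3E: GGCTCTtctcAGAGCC
The form of HIST1H2AC was present in 11 genes, among them HIST3H2A, HIST2H2BE and HIST1H3H. That of HIST1H2BD was present in 4 genes and that of HIST1H2AG in 3. The 2 forms with a GGCCCT stem, in 5 and 2 genes, were found in H4 genes alone among the members. The form of HIST1H3E was found in that gene alone among the members.

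Annotated transcripts ran past the stem-loop by 1128 bases in HIST1H2AC, 1761 bases in HIST1H2AG, 1729 bases in HIST2H2BE and 390 bases in HIST3H2A. In HIST1H2BD, which has 2 annotated transcripts, the run past it was 39 bases. The run was measured only in transcripts that hold the stem-loop, and the longest is given for each gene. A poly(A) signal, AATAAA or ATTAAA, stood in the last 50 bases of an annotated transcript in 20 of the 51 genes. The same search found one in 81.9% of the genes with a protein-coding transcript. The 20 genes with a signal had a median summed count of 807 and held 62.6% of the counts of the family. The 31 genes without one had a median of 81.0. These counts are not corrected for exon length. For 16 of these 31 genes, HIST1H1C and HIST1H2BK among them, the annotation held the coding part only. Their transcript ends could therefore not be searched for a signal, and reads beyond the coding part would not have been counted.

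Promoters are shown for the 4 genes with the smallest edgeR p between the groups, all H2A or H2B genes, to show which family elements each holds. RefSeq promoters, from 250 bases before to 50 after each start, matched 38 of the 51 genes by symbol. Capitals mark the CCAAT box, the TATA box with the letters TATAAA, and the octamer ATTTGCAT, each searched on both strands, and neighbouring matches run together. All are on GRCh38.p14 and run 5′ to 3′ on the strand of the gene. HIST1H2AC is at chr6:26123922-26124221, HIST1H2AG at chr6:27132793-27133092 and HIST1H2BD at chr6:26157871-26158170, all on the plus strand, and HIST3H2A at chr1:228457824-228458123 on the minus strand.
HIST1H2AC: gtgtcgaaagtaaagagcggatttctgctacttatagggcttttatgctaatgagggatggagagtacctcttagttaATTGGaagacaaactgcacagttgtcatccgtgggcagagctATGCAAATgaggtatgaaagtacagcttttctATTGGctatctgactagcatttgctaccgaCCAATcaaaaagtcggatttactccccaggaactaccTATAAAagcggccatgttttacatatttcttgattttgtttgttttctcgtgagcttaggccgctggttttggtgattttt
HIST1H2AG: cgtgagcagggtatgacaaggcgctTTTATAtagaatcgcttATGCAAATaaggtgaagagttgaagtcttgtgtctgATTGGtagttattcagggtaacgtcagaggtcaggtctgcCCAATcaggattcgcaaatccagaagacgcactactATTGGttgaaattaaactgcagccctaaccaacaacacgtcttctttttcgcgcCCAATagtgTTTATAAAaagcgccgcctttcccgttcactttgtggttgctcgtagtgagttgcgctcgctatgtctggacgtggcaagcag
HIST1H2BD: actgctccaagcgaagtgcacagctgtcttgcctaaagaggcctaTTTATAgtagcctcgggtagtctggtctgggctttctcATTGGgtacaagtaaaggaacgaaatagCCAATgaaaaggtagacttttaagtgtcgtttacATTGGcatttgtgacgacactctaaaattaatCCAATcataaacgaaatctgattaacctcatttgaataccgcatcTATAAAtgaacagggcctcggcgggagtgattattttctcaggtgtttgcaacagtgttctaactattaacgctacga
HIST3H2A: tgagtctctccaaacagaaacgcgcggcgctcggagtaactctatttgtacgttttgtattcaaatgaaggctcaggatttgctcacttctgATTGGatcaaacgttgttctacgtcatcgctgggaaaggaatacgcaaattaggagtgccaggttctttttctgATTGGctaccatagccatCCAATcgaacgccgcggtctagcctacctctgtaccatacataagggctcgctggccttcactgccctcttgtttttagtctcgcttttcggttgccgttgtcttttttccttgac
The windows of HIST1H2AC and HIST1H2AG held all 3 elements. That of HIST1H2BD held CCAAT and TATAAA but no octamer, and that of HIST3H2A held CCAAT alone. CCAAT occurred in 31 of the 38 promoters (81.6%), against 35.7% of 27305 promoters of the same length. It was present in all matched H1, H2A, H2B and H3 promoters and in 1 of 8 H4 promoters. TATAAA occurred in 23 of the 38 (60.5%), against 12% of all promoters. The octamer, the element bound by the factor POU2F1, occurred in 13 of the 38 (34.2%), against 1.8% of all promoters. It was found in 7 of 9 H2A and 6 of 10 H2B promoters, and in no H1, H3 or H4 promoter. Windows of genes that lie head to head, such as HIST1H2AG and HIST1H2BJ, overlap. With both strands searched, 1 site can therefore count for both genes, so the promoters are not independent. A match describes the letters of the window and shows no binding.

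Total counts were 23859184 to 26678325 per library, and 3 counts, the floor below which a level is not read, corresponded to 0.112 to 0.126 CPM. A CPM is a count per 1e+06 counts of the library, with library totals adjusted by edgeR's TMM factors. The family made up 0.0159 to 0.0257% of the counts of a library. RNF2 had 23.4, 20.4, 12.4, 12.9, 21.0 and 16.3 CPM in knock-down libraries 1 to 6, against 46.1, 38.3, 53.8, 52.2, 37.5 and 57.9 CPM in control libraries 1 to 6. Every knock-down library lay below every control library, and edgeR's quasi-likelihood test gave a log2 fold change of −1.43 (SE 0.174, adjusted p = 0.00347). In control 6, mitochondrial genes held 14.4% of the counts, against 4.65 to 10.01% in the other libraries. Of 9 Ewing sarcoma markers all but CD99, listed at 0 in all libraries, were counted, with a summed level of 3020 to 3370 CPM in knock-down and 2800 to 3300 CPM in control libraries.

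A few genes carried most of the counts of the 51 genes. The 3 genes with most counts held 56.7% of these 59002 counts and the first 10 held 85.1%. HIST1H1C, a linker histone gene at chr6:26055787-26056428 (hg38, minus strand, GENCODE release 29, as for all gene coordinates given here), held 23.8% of them and 94.4% of those of H1. Of the counts of each other type, HIST1H2AC held 70.3% in H2A, HIST1H2BD 39.3% in H2B, HIST1H3H 68.7% in H3 and HIST1H4I 58.4% in H4. By mean level per length over the 12 libraries, HIST1H1C came first with 72.3 CPM per kb of exon, then HIST1H2BD with 30.7, HIST1H2AC with 22.7, HIST3H2A with 12.7 and HIST1H2BK with 12.6 CPM per kb. HIST3H2A and HIST1H2BK, neighbours in that order, did not differ beyond the spread of their libraries. The H4 gene HIST1H4I had 8.66 and the H3 gene HIST1H3H 3.12 CPM per kb. At the low end, 24 of the 51 genes did not pass the filter on low counts and were not tested.

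**Figure D1:**
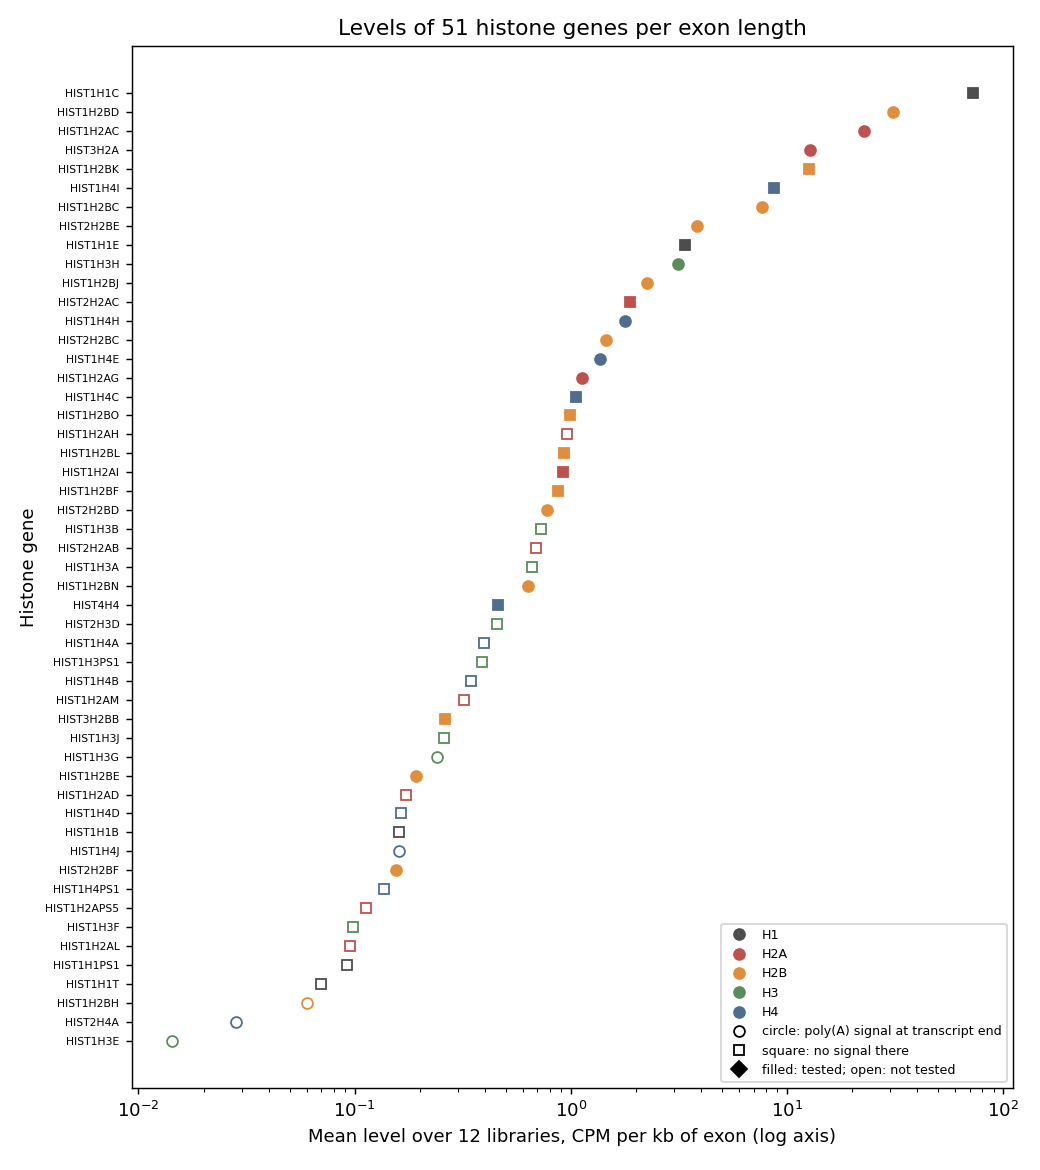
Mean level of the 51 histone genes over 12 libraries in CPM per kb of exon on a log axis, coloured by histone type. Circles are genes with a poly(A) signal at an annotated transcript end and squares are genes without one, filled where the gene was tested. Squares include the 16 genes annotated by their coding part only. HIST1H1C stands first with 72.3 CPM per kb, and the open symbols of untested genes fill most of the lower part of the plot.

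By location, 40 genes lay in the HIST1 cluster on chromosome 6, 8 in HIST2 and 2 in HIST3 on chromosome 1, and HIST4H4 alone on chromosome 12. The minimum of 10 counts fell among genes at the edge of detection. Just inside it were HIST1H2AL, HIST1H3E and HIST1H4PS1 with 11 counts, HIST1H3F with 12, HIST1H2APS5 with 13, and HIST1H1T and HIST1H4D with 15. Just outside were HIST1H2BB and HIST1H4L with 9 counts, HIST1H1A, HIST1H2AB and HIST1H2BM with 8, HIST1H2BG with 6 and HIST1H2AE with 5. Near-identical copies limit what a count of 0 means here. Of the 90 rows, 9 had every 50-base stretch of their transcripts in another gene, and 7 of these 9 had no count, among them HIST2H2AA3, HIST2H3A, HIST2H3C and HIST2H4B. How reads with several places were counted is not given in the sources used here. Among the 51 genes the median share of such stretches was 3.8%, 17 genes had none, and 10 had at least 50%. HIST1H2BK had 74.1%, so its level is uncertain. Exons of another gene overlapped those of 12 members, where reads may have been split or assigned to the other gene.

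No histone gene passed the test between knock-down and control tumours. Of the 27 genes tested, 0 were called by edgeR's quasi-likelihood test at an adjusted p below 0.05, against 0.297% of all 16519 genes tested, 0.176% called higher and 0.121% called lower. DESeq2 and limma-voom called 0 as well. The DESeq2 adjusted p was 0.0845 for HIST1H2AG, 0.0974 for HIST1H2BD and 0.101 for HIST3H2A, nearer to the threshold than by edgeR. The limma-voom adjusted p was 0.23, 0.259 and 0.21 for the same genes. At an unadjusted edgeR p below 0.05 there were 4 of the 27, all higher in knock-down, namely HIST1H2BD, HIST1H2AG, HIST3H2A and HIST1H2AC. Of all genes tested, 12.7% had such a p, 7.45% in that direction. The log2 fold change was positive in 16 of the 27 (59.3%), against 52.4% of all genes, and its median was 0.17, against 0.01 over all genes. In none of the 51 genes were the knock-down and control libraries without overlap, as they were in 1.22% of all genes tested, 0.648% with knock-down higher and 0.575% with knock-down lower.

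The direction differed among types as a description. All 5 tested H2A genes had positive log2 fold changes, from 0.06 to 0.67 with a median of 0.60. The lowest, HIST1H2AI, ran from −0.09 to 0.21 when 1 library was left out, so the count of 5 rests on a gene without a direction. The filter on low counts can be passed through 1 group alone. HIST2H2AC, a low gene among these 5, had 19 to 34 counts in knock-down and 8 to 29 in control libraries. In an edgeR fit without that filter, the other H2A genes ran from −0.37 to 0.74, on both sides of 0. The 14 tested H2B genes had 7 positive values and a median of 0.07. Of the 5 tested H4 genes 3 had positive values, with a median of 0.17. The single tested H3 gene had 0.21, and both tested H1 genes were negative, with a median of −0.14. In bulk tumour RNA, fewer cells that express a gene and less RNA per cell cannot be told apart.

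**Figure D2:**
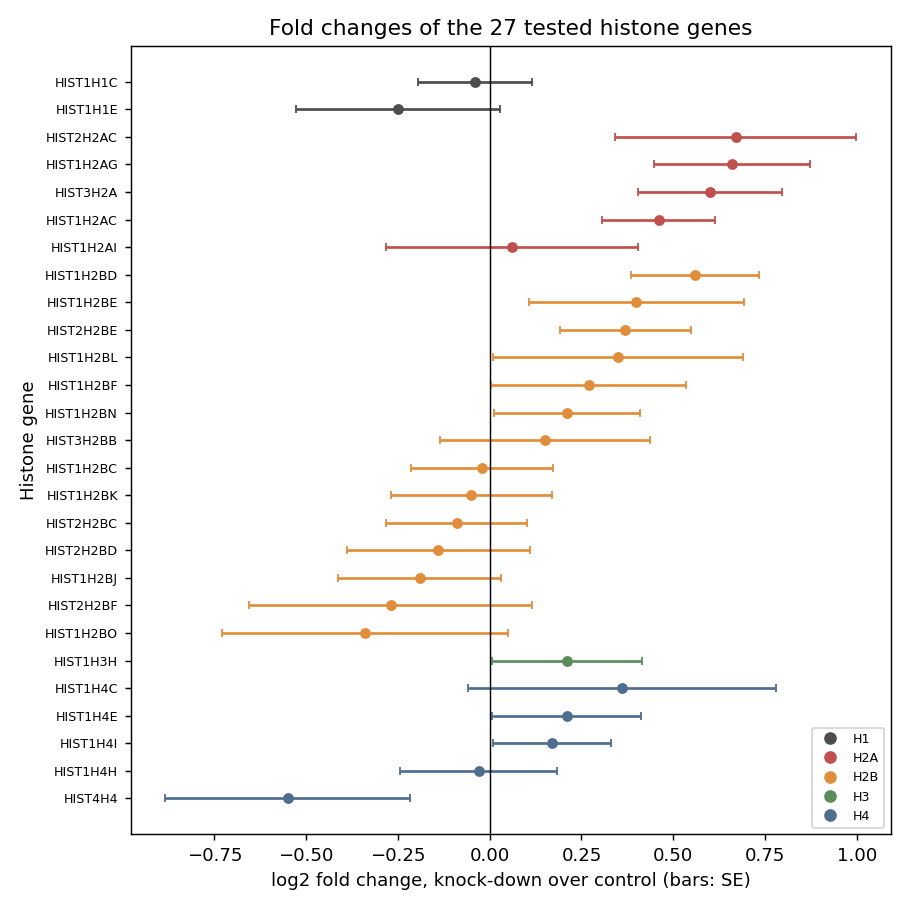
Log2 fold change, knock-down over control, of the 27 tested histone genes, ordered by histone type; points are edgeR estimates and bars are their SE. The 5 H2A genes lie at or right of 0.06, while H2B genes lie on both sides of 0.

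Summed over all members of a type, tested or not, H2A RNA had 56.9, 66.9, 44.7, 64.5, 86.9 and 58.5 CPM in knock-down libraries 1 to 6, against 45.0, 39.6, 39.7, 41.6, 47.5 and 55.6 CPM in control libraries 1 to 6. Of the 6 knock-down sums 5 were above the highest control, control 6, and knock-down 3 lay among the controls. The means were 63.1 ± 14.0 CPM in knock-down and 44.8 ± 6.14 CPM in control (SD, n = 6 each), a log2 ratio of 0.49. Without HIST1H2AC, the most abundant H2A gene, that ratio was 0.57. Mitochondrial genes held 10.01% of the counts in knock-down 5 and 14.4% in control 6, the libraries with the highest H2A sum of each group and the highest mitochondrial share of each group. The ratio was 0.38 without knock-down 5, 0.56 without control 6, and 0.41 without knock-down 4, knock-down 5 and control 6. The part of RNA quality in the H2A sum was not tested.

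H2B RNA summed to 73.7 ± 13.7 CPM in knock-down and 61.7 ± 5.29 CPM in control (SD, n = 6 each), a log2 ratio of 0.26. That sum, like the 14 tested H2B genes, includes 2 transcribed pseudogenes that overlap each other, HIST2H2BC and HIST2H2BD. Their means over the 12 libraries were 9.37 and 2.79 CPM, and their log2 fold changes −0.09 and −0.14. Of the knock-down sums 4 were above the highest control, and the lowest, 53.4 CPM in knock-down 4, was below the lowest control of 53.7 CPM. Without HIST1H2BD the log2 ratio was 0.06, so this gene made up most of the difference.

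H3 RNA summed to 6.19 ± 1.39 CPM in knock-down and 5.08 ± 0.439 CPM in control (SD, n = 6 each), a log2 ratio of 0.28. Of the 6 knock-down sums 5 were above the highest control of 5.82 CPM, and knock-down 3 was the lowest of all 12. Apart from knock-down 5 with 8.60 CPM, those above it lay only at 5.96 to 6.26 CPM. The 5.96 CPM of knock-down 4 held 1.96 CPM from the untested gene HIST1H3G alone. H4 RNA summed to 19.9 ± 4.18 CPM in knock-down and 18.5 ± 1.51 CPM in control (SD, n = 6 each), a log2 ratio of 0.11. H1 RNA summed to 48.4 ± 12.1 CPM in knock-down and 50 ± 6.79 CPM in control (SD, n = 6 each), a log2 ratio of −0.05. Groups overlapped for all 5 types. All members together had 187, 247, 182, 176, 271 and 205 CPM in knock-down libraries 1 to 6, against 188, 184, 169, 191, 176 and 172 CPM in control libraries 1 to 6. Knock-down libraries 2 and 5 were the highest, and the SD was 38.8 CPM in knock-down and 8.73 CPM in control.

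**Figure D3:**
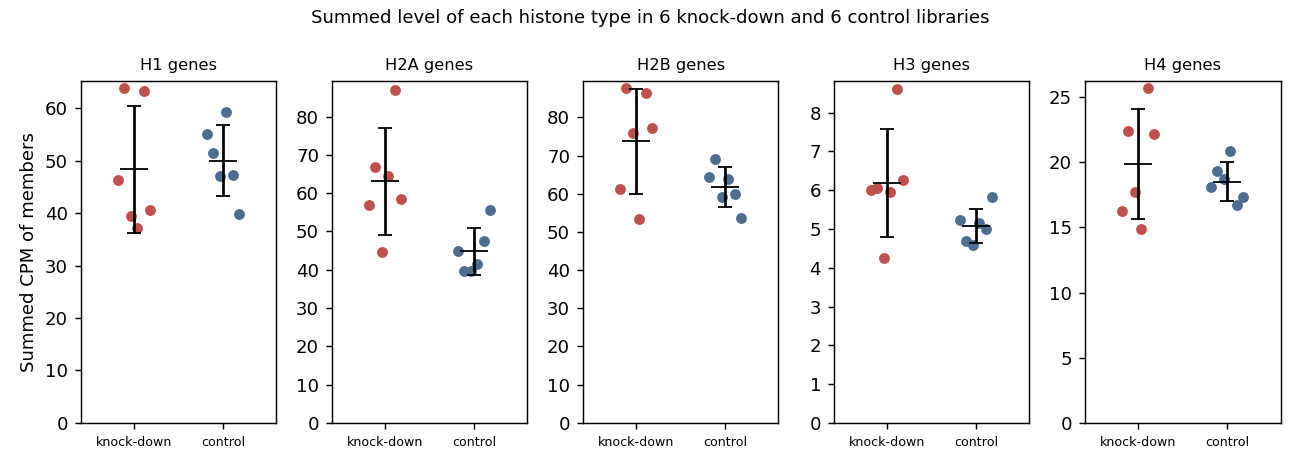
Summed CPM of all members of each histone type in 6 knock-down (red) and 6 control (blue) libraries; points are libraries, bars the mean ± SD. For H2A, 5 of 6 knock-down libraries lie above the highest control at 55.6 CPM, while for H1 knock-down libraries lie both above and below the control range.

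As a share of the summed CPM of the 51 genes, H1 made up 22.8 ± 2.32% in knock-down and 27.7 ± 2.66% in control (SD, n = 6 each). Histone genes outside the clusters were not part of that sum. H2A made up 29.9 ± 4.23% in knock-down and 25.0 ± 4.06% in control. H2B made up 35.0 ± 4.24% in knock-down and 34.2 ± 2.09% in control. The shares of both H1 and H2A overlapped between groups and, as parts of 1 whole, cannot vary independently.

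Among the H2A genes, which encode the histone that RING1B ubiquitinates, HIST1H2AC (chr6:26124145-26139116, plus strand) was the most abundant. It had 39.4, 45.4, 30.4, 41.9, 66.1 and 40.2 CPM in knock-down libraries 1 to 6, against 31.7, 30.5, 29.8, 30.1, 29.6 and 39.6 CPM in control libraries 1 to 6. The controls lay close together except control 6, and knock-down 3 fell among them while knock-down 5 stood highest. edgeR estimated a log2 fold change of 0.46, with SE 0.155 and an adjusted p = 0.236. It was 0.31 without knock-down 5.

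HIST3H2A, the H2A gene of the small cluster on chromosome 1 (chr1:228456979-228457873, minus strand), had 12.4, 14.3, 9.80, 17.4, 15.8 and 12.6 CPM in knock-down libraries 1 to 6, against 9.34, 6.26, 6.54, 7.90, 12.5 and 11.8 CPM in control libraries 1 to 6. Each knock-down library was above the control median, and 4 were above the highest control. By edgeR the log2 fold change amounted to 0.60, with SE 0.196 and adjusted p = 0.224.

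HIST1H2AG (chr6:27133042-27135291, plus strand) had 2.69, 4.53, 2.33, 2.30, 3.22 and 3.66 CPM in knock-down libraries 1 to 6, against 2.11, 1.52, 1.87, 2.05, 1.91 and 2.39 CPM in control libraries 1 to 6. The overlap came from knock-down 3 and 4, which lay just below control 6. On the log2 scale the difference was 0.66, with SE 0.212 and an edgeR adjusted p = 0.219.

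HIST2H2AC (chr1:149886975-149887364, plus strand) was a low gene, with 0.831, 0.846, 0.728, 1.45, 0.793 and 0.749 CPM in knock-down libraries 1 to 6, against 0.334, 0.493, 0.319, 0.503, 1.15 and 0.586 CPM in control libraries 1 to 6. All 6 knock-down libraries were above 5 of the controls, and control 5 was above all knock-down libraries but the fourth. By edgeR the difference was 0.67 on the log2 scale, with SE 0.328 and adjusted p = 0.42. It was 0.48 without knock-down 4 and 0.99 without control 5. HIST1H2AI, the fifth tested H2A gene, had a log2 fold change of 0.06 (SE 0.343).

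Both HIST2H2AC and HIST3H2A were highest in knock-down 4 and, among controls, in control 5. The summed level of 10 leukocyte markers also peaked there. It was 32.5 CPM in knock-down 4, within a knock-down range of 7.21 to 32.5 CPM. In control 5 it was 25.1 CPM, within a control range of 5.67 to 25.1 CPM. Most of it came from LYZ (15.3 and 9.98 CPM) and AIF1 (10.8 and 7.48 CPM). Among controls, AIF1, TYROBP and CD14 were highest in control 6 instead. Of the knock-down libraries, knock-down 6 had the highest PTPRC and CD68, and knock-down 1 the highest CD14. CD3E was at 0 in all libraries. The 7 fibroblast and pericyte markers, none at 0, summed to 241 to 1150 CPM in knock-down and 311 to 1140 CPM in control. Knock-down 4 and control 5 again had the highest sums, mostly from COL1A1 (658 and 695 CPM) and COL1A2 (331 and 313 CPM). ACTA2 was also highest in both, but DCN, LUM, PDGFRB and RGS5 peaked in neither. Of the knock-down libraries, knock-down 4 had the lowest DCN (37.8 CPM) and LUM (6.34 CPM). Endothelial markers summed to 1.18 to 6.51 CPM in knock-down and 1.32 to 4.44 CPM in control. None of these markers was called between the groups, and their part in the H2A values was not tested. The untested H3 gene HIST1H3G, which is outside the rule for named genes and was chosen after its values were seen, had 1.96 CPM in knock-down 4 and 0.125 to 0.63 CPM in the other knock-down libraries. It had 1.03 CPM in control 5 and 0.319 to 0.837 CPM in the other controls.

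**Figure D4:**
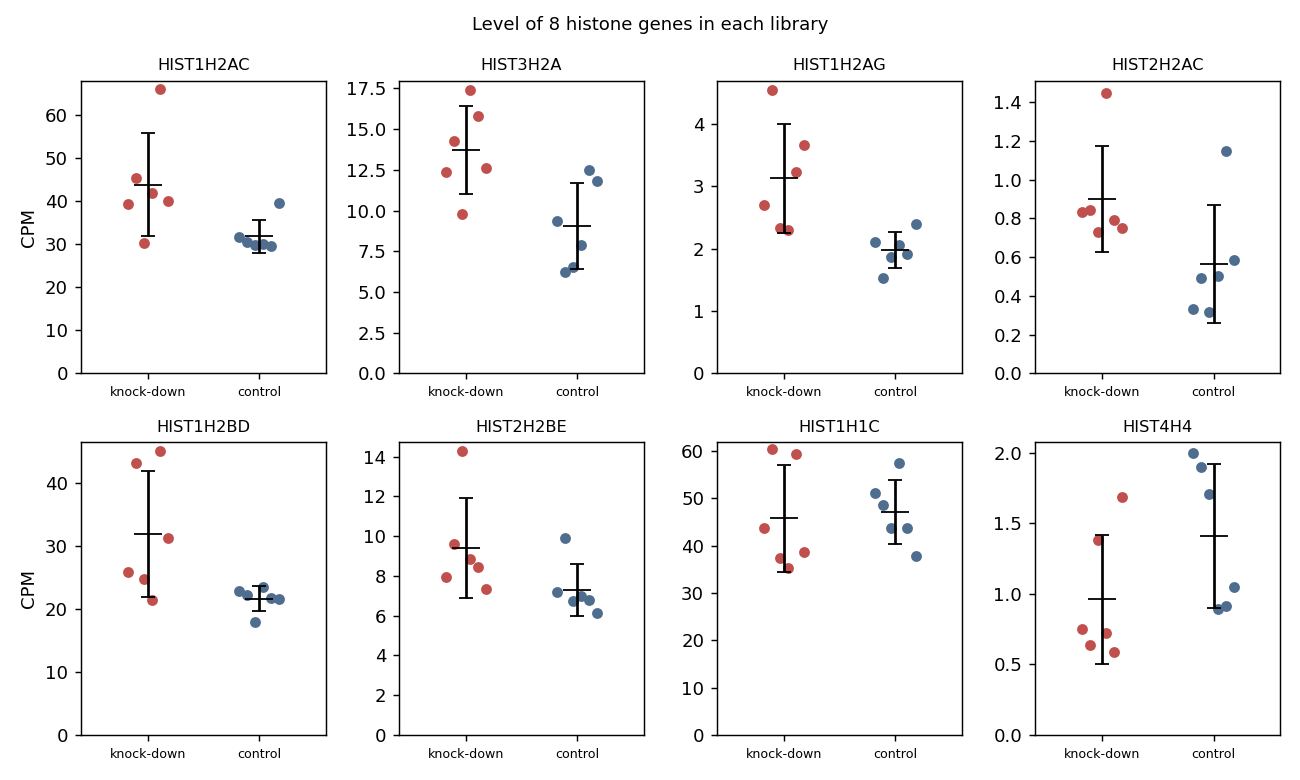
CPM of 8 histone genes in each of 6 knock-down (red) and 6 control (blue) libraries, with mean ± SD. Points of the groups overlap in every panel; the H2A genes and HIST1H2BD lie mostly higher in knock-down libraries, for HIST1H1C 2 knock-down libraries lie above and 2 below all controls, and 4 of 6 knock-down libraries of HIST4H4 lie below all controls.

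Among the H2B genes, HIST1H2BD (chr6:26158146-26171349, plus strand) was the most abundant and had the smallest p of the 27 tested genes. It had 25.8, 43.2, 24.8, 21.4, 45.1 and 31.2 CPM in knock-down libraries 1 to 6, against 22.8, 22.3, 17.9, 23.5, 21.8 and 21.6 CPM in control libraries 1 to 6. Of the knock-down libraries 5 were above all controls, with knock-down 2 and 5 far above the rest, and knock-down 4 was among the controls. The edgeR estimate was 0.56 on the log2 scale, with SE 0.174 and adjusted p = 0.206.

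HIST2H2BE (chr1:149884459-149886652, minus strand) had 7.95, 9.60, 14.3, 8.86, 8.44 and 7.33 CPM in knock-down libraries 1 to 6, against 7.19, 9.90, 6.74, 6.97, 6.80 and 6.15 CPM in control libraries 1 to 6. Knock-down 3 stood highest and control 2 above all other controls. By edgeR the difference was 0.37 on the log2 scale, with SE 0.179 and adjusted p = 0.412. With 1 library left out, it was 0.20 at the lowest. The low gene HIST1H2BE, 28.2% of whose exon bases overlap a gene on the other strand, had a log2 fold change of 0.40 (SE 0.293, edgeR adjusted p = 0.599).

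HIST1H2BC, HIST1H2BK and HIST1H2BJ had differences smaller than their SE. HIST1H2BC averaged 6.34 ± 1.66 CPM in knock-down and 6.41 ± 0.994 CPM in control (SD, n = 6 each), a log2 fold change of −0.02 (SE 0.193). HIST1H2BK averaged 4.71 ± 0.988 CPM in knock-down and 4.89 ± 1.35 CPM in control, a log2 fold change of −0.05 (SE 0.219). HIST1H2BJ averaged 1.98 ± 0.53 CPM in knock-down and 2.27 ± 0.365 CPM in control, a log2 fold change of −0.19 (SE 0.222). The remaining 8 tested H2B genes lay between −0.34 and 0.35 on the log2 scale.

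Several H2A and H2B genes lie head to head and share the sequence between their starts, so each pair gives a ratio within a library. The 5 pairs in which both genes were tested were taken up after the values had been seen, and their ratios are given as a description with no test. HIST1H2AG and HIST1H2BJ start 292 bases apart, and the promoter of HIST1H2AG printed above reaches across most of that space. Their log2 ratio, H2A gene over H2B gene, was 0.64 ± 0.31 in knock-down and −0.19 ± 0.40 in control (SD, n = 6 each). Of the knock-down libraries 5 were above the highest control, and the difference of 0.83 ranged from 0.72 to 0.94 when 1 library was left out.

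HIST1H2AC and HIST1H2BC start 219 bases apart, a space that lies wholly within the printed promoter of HIST1H2AC. Their log2 ratio was 2.78 ± 0.44 in knock-down and 2.31 ± 0.32 in control (SD, n = 6 each), and 2 knock-down libraries were above the highest control. HIST3H2A and HIST3H2BB, 234 bases apart, had 4.26 ± 0.39 in knock-down and 3.76 ± 0.60 in control. HIST2H2AC and HIST2H2BE, 323 bases apart, had −3.28 ± 0.52 in knock-down and −3.61 ± 0.66 in control. HIST1H2AI and HIST1H2BL, 268 bases apart, had −0.07 ± 0.30 in knock-down and 0.14 ± 0.59 in control. Mean ratios were thus higher in knock-down for 4 of the 5 pairs, with overlap between the groups in each. The H2A genes of these 4 pairs are those with the higher values above, so the count is no separate result. Pairs with an untested H2A gene were left out. In them the mean log2 CPM difference, knock-down minus control, was −0.20 for HIST1H2AH and −0.02 for HIST1H2BK. It was −0.09 for HIST1H2AD and 0.18 for HIST1H2BF, and −0.02 for HIST1H2AM and −0.41 for HIST1H2BO.

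**Figure D5:**
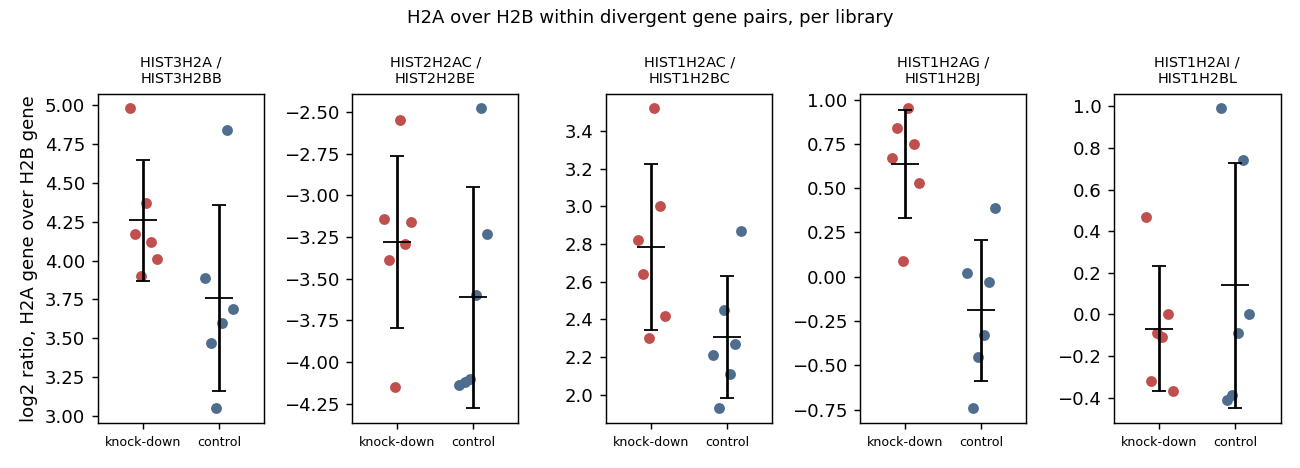
Log2 ratio of the H2A over the H2B gene of 5 head-to-head pairs in 6 knock-down (red) and 6 control (blue) libraries, with mean ± SD; each panel has its own axis. For HIST1H2AG over HIST1H2BJ, 5 knock-down libraries lie above the highest control at 0.39.

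The linker histone genes stayed within the spread of the libraries. HIST1H1C had 43.7, 60.5, 37.3, 35.2, 59.4 and 38.6 CPM in knock-down libraries 1 to 6, against 51.2, 48.5, 43.8, 57.5, 43.8 and 37.9 CPM in control libraries 1 to 6. Knock-down 2 and 5 were highest and knock-down 4 lowest of all 12, with the controls between them. edgeR estimated a log2 fold change of −0.04, with SE 0.154 and an adjusted p = 0.941. HIST1H1E (chr6:26156354-26157107, plus strand) averaged 2.32 ± 0.862 CPM in knock-down and 2.75 ± 0.828 CPM in control (SD, n = 6 each), a log2 fold change of −0.25 (SE 0.279, edgeR adjusted p = 0.754). HIST1H1B was under the floor of 3 counts in all libraries but knock-down 4, with 0.596 CPM, and knock-down 6, with 0.158 CPM.

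Of the H3 genes, HIST1H3H (chr6:27810064-27811300, plus strand) alone was tested. It had 4.47, 4.10, 2.84, 2.90, 6.35 and 4.22 CPM in knock-down libraries 1 to 6, against 3.82, 3.64, 3.39, 3.99, 2.90 and 3.73 CPM in control libraries 1 to 6. Knock-down libraries lay on both sides of the controls, and edgeR estimated 0.21 on the log2 scale, with SE 0.204 and adjusted p = 0.701. Without knock-down 5, the highest library, it was 0.05.

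HIST1H3B (chr6:26031650-26032060, minus strand) did not pass the filter on low counts. It had 0.277, 0.55, 0.291, 0.213, 1.04 and 0.315 CPM in knock-down libraries 1 to 6, against 0.222, 0.0759, 0.159, 0.0774, 0.199 and 0.167 CPM in control libraries 1 to 6. Of the knock-down libraries 5 were above the highest control, and 2 of the controls were under the floor of 3 counts. Without the filter, edgeR gave a log2 fold change of 1.53 with an adjusted p = 0.258. HIST1H3A, also not tested, had 0.0846 to 0.512 CPM in knock-down and 0.167 to 0.349 CPM in control libraries.

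Of the H4 genes, HIST1H4I (chr6:27138588-27139881, plus strand) was the most abundant. It had 9.26, 14.0, 10.2, 8.77, 15.4 and 13.6 CPM in knock-down libraries 1 to 6, against 10.6, 11.2, 10.1, 12.5, 8.67 and 10.1 CPM in control libraries 1 to 6. Knock-down 2, 5 and 6 were above all controls and the other knock-down libraries among them, and edgeR estimated 0.17 on the log2 scale, with SE 0.161 and adjusted p = 0.69. Without knock-down 5 it was 0.08. HIST1H4H had a log2 fold change of −0.03 (SE 0.214) and HIST1H4E of 0.21 (SE 0.203).

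HIST4H4 (chr12:14767999-14771131, minus strand), which lies outside the clusters on chromosomes 1 and 6, had the most negative value of the 27 tested genes. It had 0.752, 0.635, 1.38, 0.724, 0.585 and 1.69 CPM in knock-down libraries 1 to 6, against 2, 1.90, 1.71, 0.891, 0.915 and 1.05 CPM in control libraries 1 to 6. Of the knock-down libraries 4 were below all controls, and the other 2, knock-down 3 and 6, were above the 3 lowest controls. By edgeR the log2 fold change amounted to −0.55, with SE 0.334 and adjusted p = 0.521.

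Genes around the family were counted from lists, none of whose members passed the test. Of 12 histone variants outside the clusters, most of which are known to yield polyadenylated mRNA, 11 had positive log2 fold changes with a median of 0.14, and 0 were called. Of all genes tested, 52.4% had a positive value. H2AFY2, which encodes a macroH2A, averaged 462 ± 42.3 CPM in knock-down and 357 ± 40.1 CPM in control (SD, n = 6 each). Its knock-down libraries, 407 to 503 CPM, were all above its control libraries, 295 to 394 CPM, as was so in 0.648% of all genes tested. The edgeR estimate was 0.37 on the log2 scale, with SE 0.098 and adjusted p = 0.143. H2AFY, the other macroH2A gene, had a log2 fold change of 0.17 (edgeR adjusted p = 0.5).

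Of 25 genes that form or break down the 3′ end of histone mRNA, 12 had positive log2 fold changes with a median of −0.02, and 0 were called. The smallest p among them was that of CSTF2, a cleavage stimulation factor, with a log2 fold change of −0.27 (edgeR adjusted p = 0.354), followed by the polyadenylation factor FIP1L1 with −0.18 (edgeR adjusted p = 0.455). Of 17 genes of the histone locus body and histone transcription, 9 were positive with a median of 0.00, and 0 were called. Here CDK2, which phosphorylates the coactivator NPAT, had −0.15 (edgeR adjusted p = 0.523) and the coilin gene COIL had 0.18 (edgeR adjusted p = 0.609).

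Of 35 DNA replication and S phase genes, 9 were positive with a median of −0.11, and 0 were called. At an unadjusted edgeR p below 0.05, 7 of the 35 were lower in knock-down, against 5.21% of all genes in that direction. FEN1, the flap endonuclease, averaged 156 ± 18.7 CPM in knock-down and 199 ± 26.7 CPM in control (SD, n = 6 each), a log2 fold change of −0.35 (edgeR adjusted p = 0.217). GINS4, a subunit of the replicative helicase, had −0.34 (edgeR adjusted p = 0.279). Of 18 histone chaperone genes, 6 were positive with a median of −0.05, and 0 were called, with ATRX at −0.32 (edgeR adjusted p = 0.344) and ASF1A at 0.31 (edgeR adjusted p = 0.54).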

How the data were processed

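RNA-seq gene counts of 12 tumour libraries, 6 knock-down and 6 control by the genotype label, were used as deposited by the authors: raw counts per gene, not normalised. Per the labels' protocols, library preparation used a TruSeq stranded mRNA kit, so RNA with a poly(A) tail was selected. Per the submitters' processing notes, the tools named are FastQC, STAR 2.6.0a, featureCounts, limma 3.40.2 and R 3.6.0, with the build hg38. Not given in the sources used here are the strand setting, the handling of reads with several places and any removal of host reads. Where host reads or reads of an overlapping antisense gene were counted, they stand in these values.

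The exons of each row were those of GENCODE release 29. Counts were analysed in R 4.3.3 with edgeR 4.0.16 (filterByExpr, which kept 16519 genes, TMM factors from 0.921 to 1.044, robust quasi-likelihood F test, no covariate) and Benjamini-Hochberg adjustment over all genes tested. A gene was called at an adjusted p below 0.05. The filter asks for counts in 6 libraries, so a low gene can pass through 1 group alone. SE of log2 fold changes come from the F statistic, and a prior count of 2 entered log2 CPM. Type sums, ratios and promoter matches are descriptions. The procedure was tested on simulated data. Alternatives were RLE factors, library size alone, other filters, DESeq2 1.42.0, limma-voom 3.58.1, and models of the title number and letter.

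The members and lists were chosen with earlier results of these data known. Members named are, per type, the 3 highest per length, then the 8 with the smallest edgeR p, the 3 most positive and 3 most negative fold changes at a mean CPM of at least 1, and those without overlap between groups, of which there were 0. From each list, the 2 genes with the smallest p are named.

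The lowest chi-square per degree of freedom between libraries of a group was 12.05, between control 1 and control 2, so none was a repeat of another. Library titles hold 8 numbers, 4 of them on 2 libraries each. Whether each library is from its own animal is not said in the labels, so p-values cover only the spread among these libraries, which may be technical. Replicates are numbered in accession order.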

Additional observations from a re-analysis of the deposited data

Results flagged for a closer look

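In 52 groups of 6 libraries, 1 library stood apart from the other 5 in 7 cases, where chance alone would give about 1 in 20 groups. That rate holds for independent, normally distributed values. The genes here share the same 12 libraries and some have few counts, so no excess over it can be read. HIST1H1B had 0.596 CPM in knock-down 4, against 0 to 0.158 CPM in the other knock-down libraries. HIST2H2AC had 1.45 CPM in knock-down 4, against 0.728 to 0.846 CPM in the other knock-down libraries. In control 5 it had 1.15 CPM, against 0.319 to 0.586 CPM in the other controls. HIST2H2BE had 14.3 CPM in knock-down 3, against 7.33 to 9.60 CPM in the other knock-down libraries. In control 2 it had 9.90 CPM, against 6.15 to 7.19 CPM in the other controls. HIST1H2AC had 39.6 CPM in control 6, against 29.6 to 31.7 CPM in the other controls. HIST1H2BD had 17.9 CPM in control 3, against 21.6 to 23.5 CPM in the other controls.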

How the results depend on the processing

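No histone gene was called under any alternative run, and the median log2 fold change of the tested members stayed positive, between 0.08 and 0.26. Over all genes, 49 were called by edgeR, against 349 by DESeq2, 91 with the title number as a random effect, 7 with counts summed by title number, 28 with the title letter as a covariate and 3 at an adjusted p below 0.01. Leaving out 1 library gave 16 to 79 calls, and leaving out control 6, knock-down 4 and knock-down 5 together gave 108. The cause was not tested. With counts summed by title number, HIST1H1C reached 0.04, HIST1H2BK 0.07 and HIST1H2BC 0.03 on the log2 scale, opposite in sign to the reported values. With 1 library left out, log2 fold changes ran from −0.14 to 0.02 for HIST1H1C, −0.18 to 0.02 for HIST1H2BK, −0.10 to 0.10 for HIST1H2BC, −0.17 to 0.06 for HIST1H4H, −0.09 to 0.21 for HIST1H2AI and −0.22 to 0.01 for HIST2H2BC, so these have no direction. The H2A sum kept a log2 ratio of 0.38 to 0.57 in those runs, and that of H1 took both signs. The differences of pair ratios, with libraries left out and with a prior count of 0.5, were added after seeing the data and kept their signs. No paired analysis was possible because no title number occurs in both groups. Depth limits the untested genes, many of them near 3 counts per library. Selection of polyadenylated RNA is meant to leave out stem-loop ended histone mRNA, whose level cannot be read here.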
